A study of Mus musculus with 6 samples.

Results

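The small GTPases of the Rap and Ras groups were examined in RNA-seq libraries of molar dental pulp, as the 9 genes *Rap1a*, *Rap1b*, *Rap2a*, *Rap2b*, *Rap2c*, *Nras*, *Hras*, *Rras* and *Rras2* among 27506 genes in all. They were chosen by symbol when their levels in these same control and mutant libraries were already known, so their differences between the groups, and whether a fit over all genes put them past its threshold, are given as a description only. Pulp was taken from the mandibular first molar of C57BL/6 mice 3.5 days after birth (P3.5). The 3 control libraries have the genotype Ror2fl/fl, with both *Ror2* alleles floxed and no Cre named. The 3 mutant libraries have the genotype Osr2-Cre;Ror2fl/fl, in which a Cre driven by *Osr2* acts in the dental mesenchyme and alveolar bone and leaves *Ror2* intact in the epithelium. Both groups carry the floxed alleles, and no control with Cre alone is named among these libraries. The labels list the libraries as separate samples without naming the animals, so p-values measure only the spread between these samples, which may be technical.

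Rap and Ras proteins are molecular switches, active when bound to GTP and inactive when bound to GDP. Exchange factors (GEFs) load them with GTP, and GTPase activating proteins (GAPs) speed up hydrolysis and switch them off. Ras proteins carry signals from growth factor receptors to the Raf, MEK and ERK kinases and to PI3-kinase, whereas Rap1 is known above all for the control of integrins and cell junctions and Rap2 for the kinases of the *Map4k4*, *Mink1* and *Tnik* family. *Ror2* encodes a receptor for non-canonical Wnt ligands.

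The 9 proteins share a GTP-binding fold and differ most at the carboxyl end, where a cysteine 4 residues from the end receives a lipid anchor. Translated from the GENCODE M21 coding sequences, Rap1a and Rap1b were identical at 95.1% of 184 aligned residues. The Rap2 proteins were identical to each other at 85.8% to 90.7% of 183 residues and to the Rap1 proteins at 60.1% to 61.7%. Nras and Hras were identical at 85.7% of 189 residues, and Rras and Rras2 at 66.0%. The last 45 coding bases before the stop codon are shown because they separate the members most clearly. The 12 bases in capitals code for the last 4 residues, starting with the codon of the cysteine, which all 9 genes have:

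Rap1a: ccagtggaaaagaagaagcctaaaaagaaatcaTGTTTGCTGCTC
Rap1b: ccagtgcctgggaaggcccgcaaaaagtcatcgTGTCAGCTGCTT
Rap2a: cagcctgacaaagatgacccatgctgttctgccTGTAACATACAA
Rap2b: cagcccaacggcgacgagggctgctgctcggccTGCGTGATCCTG
Rap2c: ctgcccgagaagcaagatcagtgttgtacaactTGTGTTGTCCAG
Nras: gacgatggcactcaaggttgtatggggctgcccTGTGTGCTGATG
Hras: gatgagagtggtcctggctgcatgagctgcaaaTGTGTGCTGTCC
Rras: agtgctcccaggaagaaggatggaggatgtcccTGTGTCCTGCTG
Rras2: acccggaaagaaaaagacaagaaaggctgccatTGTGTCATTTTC

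Among the 15 residues before the last 4, Rap1a held 8 lysines and arginines and Rap1b held 6, with no cysteine in either. The 3 Rap2 proteins held 0 or 1 lysine or arginine and 2 cysteines each, the residues that can receive palmitate. Hras also held 2 cysteines in this stretch, against 1 in Nras, Rras and Rras2. The final residue was leucine in Rap1a, Rap1b, Rap2b and Rras, glutamine in Rap2a and Rap2c, methionine in Nras, serine in Hras and phenylalanine in Rras2. As background, a final leucine or phenylalanine favours a geranylgeranyl anchor and methionine, serine or glutamine a farnesyl anchor.

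The libraries held 56134770 to 62628940 estimated counts. The letters in the labels are WW for control library 1, OW for control libraries 2 and 3 and OR for the mutant libraries. What these letters stand for is not given in the sources used here. The identifiers in the labels run in one series for control and in another for mutant libraries, so anything these series stand for cannot be told apart from the genotype. *Ror2* measured 38.2, 36.2 and 36.7 CPM (counts relative to the size of the library, scaled between libraries by the TMM method) in control and 27.9, 28.1 and 26.3 CPM in mutant libraries, summed over all its exons. The tissue was not mesenchyme alone. *Amelx*, the enamel protein gene of ameloblasts, took 9.15% to 9.97% of the counts in control and 12.6% to 15.1% in mutant libraries, and the summed level of 6 epithelial markers was higher in every mutant library (174866 to 238672 CPM) than in any control library (152875 to 170339 CPM), with 0 of the 6 past the threshold in edgeR. Nearly all of this sum was *Amelx* and *Ambn*, and *Ambn* ranged from 60637 to 68374 CPM in control and from 48613 to 74632 CPM in mutant libraries. Skeletal muscle markers summed to 6.83 to 21.2 CPM in control libraries and 1.86 to 1.99 CPM in mutant libraries, with 4 of 5 genes past the threshold and *Myog* at most at 0.172 CPM. The summed ranges of the mesenchymal, endothelial, leukocyte, blood, Schwann cell and bone lists overlapped between the groups, although single markers in them differed. The odontoblast matrix genes varied within each group. *Col1a1* ranged from 11084 to 37132 CPM in control libraries and from 9883 to 28301 CPM in mutant libraries. The part of these cell types in the values of the Rap and Ras genes was not tested, and in bulk tissue fewer cells of a type cannot be told apart from less RNA per cell.

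All 9 genes passed the filter on low counts, with 383 to 9734 estimated counts per library. Of these, 7 had a lower mean in mutant libraries, and the median log2 fold change (mutant minus control) was -0.39, against 0.01 over the 19330 genes tested. By the quasi-likelihood test of edgeR, adjusted over all tested genes, 4 of the 9 were past an adjusted p of 0.05, all lower in mutant libraries: *Rap1a*, *Rap1b*, *Rap2c* and *Rras2*. Over all genes tested, 20.2% were past this threshold, 9.84% lower and 10.4% higher. The groups did not overlap for 5 of the 9 with mutant libraries lower (22.1% of all genes) and for 1 with mutant libraries higher (22.6% of all genes, 44.7% in either direction). Since these counts come from the contrast that was known when the genes were chosen, nothing is read from them.

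**Figure D1:**
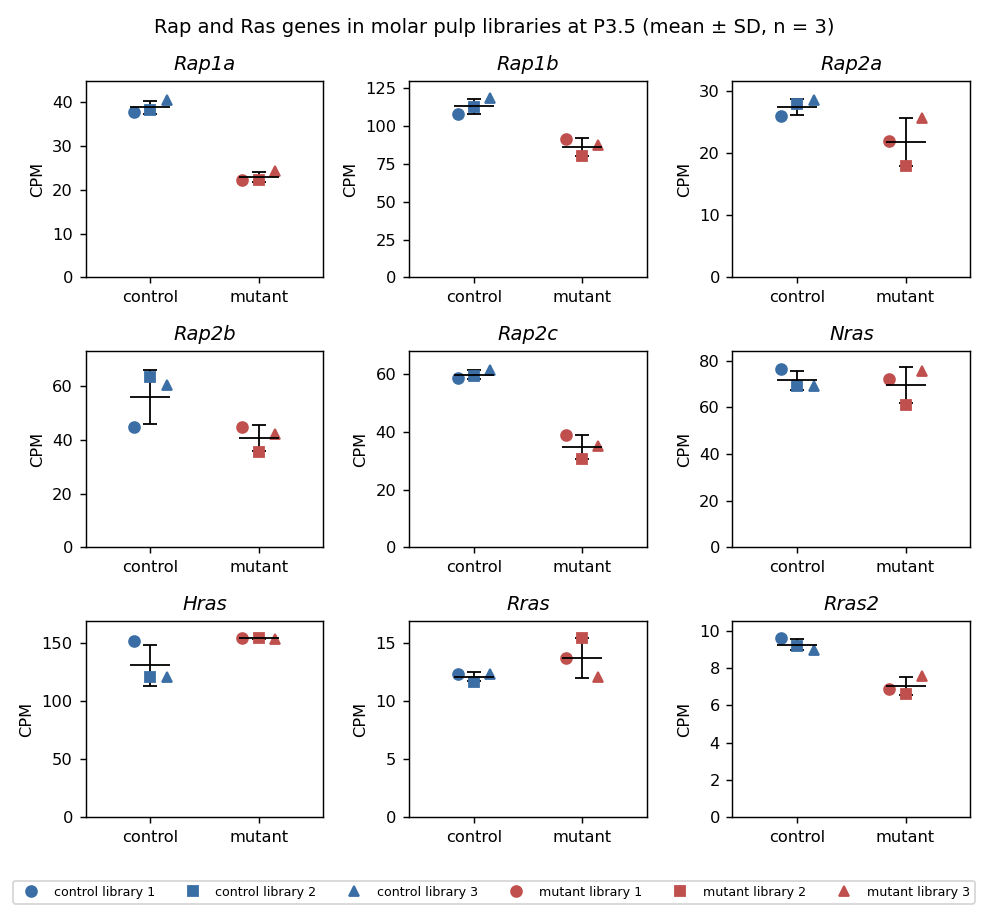
CPM (y axis, from 0) of each of the 9 genes in the 3 control (blue) and 3 mutant (red) libraries, with horizontal bars for the mean and error bars for the SD (n = 3). *Rap1a*, *Rap1b*, *Rap2a*, *Rap2c* and *Rras2* are lower in every mutant library than in any control library, *Hras* is higher, and the groups overlap for *Rap2b*, *Nras* and *Rras*.

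*Rap1a* (ENSMUSG00000068798.10; mm10 chromosome 3, 105727267 to 105801336, minus strand) encodes 1 of the 2 Rap1 proteins that regulate integrin adhesion. It measured 37.7, 38.1 and 40.5 CPM in control libraries and 22.3, 22.2 and 24.2 CPM in mutant libraries. The groups were far apart, with little spread inside either. The means were 38.8 ± 1.55 and 22.9 ± 1.13 CPM (SD, n = 3 each), and fell by 40.9%, with a log2 fold change of -0.76 (SE 0.09). Of the 75-base stretches of its transcripts, 4.48% also occur in the processed pseudogene *Gm9392* on chromosome 7 (46820864 to 46821417), which itself measured 10.9 ± 0.263 CPM in control libraries and 8.14 ± 0.439 CPM in mutant libraries. The sum of gene and pseudogene ran from 48.6 to 51.7 CPM in control libraries and from 29.8 to 32.7 CPM in mutant libraries, a log2 fold change of -0.68.

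*Rap1b* (ENSMUSG00000052681.8; chromosome 10, 117813871 to 117846035, minus strand), its close paralogue and the main Rap1 form of platelets, measured 108, 112 and 118 CPM in control libraries and 91.3, 79.8 and 87.6 CPM in mutant libraries. Every mutant library was lower, by a smaller proportion than for *Rap1a*. The mean fell by 23.5%, and the log2 fold change was -0.39 (SE 0.09). With an offset for GC content it was -0.07 (SE 0.09), no longer past the threshold, and the adjusted groups overlapped. *Itga2b*, the platelet integrin gene among the blood markers, measured 0.738 to 1.05 CPM in control libraries and 1.36 to 3.5 CPM in mutant libraries. It was past the threshold and higher in mutant libraries (log2 fold change 1.30). *Gp9* and *Ppbp*, also platelet markers, stayed at or under 0.312 CPM in all libraries. Of the erythroid markers in the same list, *Hba-a1* (log2 fold change -2.38) and *Alas2* (-1.66) were past the threshold and lower in mutant libraries, and *Hbb-bs* (-0.52) was not past it.

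*Rap2c* (ENSMUSG00000050029.7; chromosome X, 51003912 to 51018018, minus strand) had, in the fit without an offset, the largest difference of the 9 genes, which shrank to -0.36 and was no longer past the threshold with an offset for GC content. It measured 58.4, 59.2 and 61.2 CPM in control libraries and 38.8, 30.5 and 35.1 CPM in mutant libraries. The control libraries were within a few CPM of each other, and the highest mutant library was far below them. The mean fell by 41.7%, with a log2 fold change of -0.78 (SE 0.11).

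The other Rap2 genes differed less. *Rap2a* (ENSMUSG00000051615.14; chromosome 14, 120478444 to 120507194, plus strand) measured 26.0, 27.8 and 28.5 CPM in control libraries and 21.99, 17.9 and 25.7 CPM in mutant libraries, a log2 fold change of -0.33 (SE 0.14). The groups only just separated, because mutant library 3 came within 1 CPM of the lowest control library. Without mutant library 2 the log2 fold change was -0.19, and without mutant library 3 it was -0.47, the only leave-one-out fit in which *Rap2a* was past the threshold.

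*Rap2b* (ENSMUSG00000036894.3; chromosome 3, 61361638 to 61368430, plus strand), an intronless gene, measured 44.6, 63.2 and 60.3 CPM in control libraries and 44.7, 35.3 and 42.1 CPM in mutant libraries. Control library 1 stood with the mutant libraries, and the groups overlapped through it. The log2 fold change was -0.46 (SE 0.15), and -0.61 without control library 1, when *Rap2b* was past the threshold. The antisense gene *B430305J03Rik* holds 54% of the 75-base stretches of *Rap2b*, but it was listed at 0 in every control library and at most at 0.491 CPM in mutant libraries. Whether counting used the strand is not given in the sources used here.

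Of the Ras genes, *Rras2* (ENSMUSG00000055723.6; chromosome 7, 114046782 to 114117781, minus strand), which encodes TC21, a relative of Ras with transforming activity, was the one with mutant libraries lower. It measured 9.60, 9.21 and 8.97 CPM in control libraries and 6.90, 6.64 and 7.56 CPM in mutant libraries. The groups did not overlap, and the mean fell by 24.1% with a log2 fold change of -0.40 (SE 0.12). It was also the least abundant of the 9.

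*Hras* (ENSMUSG00000025499.18; chromosome 7, 141189105 to 141194005, minus strand), 1 of the founding Ras oncogene relatives, went the other way. It measured 151, 121 and 120 CPM in control libraries and 154, 154 and 153 CPM in mutant libraries. The mutant libraries were nearly equal, and control library 1 lay close beneath them, apart from the other control libraries. The log2 fold change was 0.23 (SE 0.12). It was 0.34 without control library 1 and 0.17 without control library 2 or 3.

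*Nras* (ENSMUSG00000027852.14; chromosome 3, 103058285 to 103067914, plus strand), the Ras form named for neuroblastoma, measured 76.2, 69.3 and 69.2 CPM in control libraries and 72.2, 61.0 and 75.3 CPM in mutant libraries. The groups overlapped, with a log2 fold change of -0.04 (SE 0.11). *Rras* (ENSMUSG00000038387.9; chromosome 7, 45017961 to 45021647, plus strand), known for its action on integrins and for its level in vessels, measured 12.3, 11.6 and 12.3 CPM in control libraries and 13.6, 15.4 and 12.01 CPM in mutant libraries. These also overlapped, with a log2 fold change of 0.18 (SE 0.12). The endothelial marker *Pecam1* measured 35.5 to 48.4 CPM in control libraries and 38.9 to 50.9 CPM in mutant libraries. None of the 5 endothelial markers was past the threshold, with log2 fold changes of 0.05 for *Pecam1*, 0.24 for *Emcn*, -0.19 for *Cdh5*, -0.29 for *Tek* and -0.32 for *Kdr*.

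Added together, the 5 Rap genes measured 275, 301 and 308 CPM in control libraries and 219, 186 and 215 CPM in mutant libraries, without overlap. The 4 Ras genes summed to 249, 211 and 211 CPM in control libraries and 247, 237 and 248 CPM in mutant libraries, where control library 1 lay above every mutant library and the groups overlapped. Levels of different genes can be compared only per length, so CPM were divided by the length of the union of exons. On this scale the Rap genes held 54.2%, 59.7% and 60.3% of the 9-gene total in control and 47.7%, 44.2% and 47.6% in mutant libraries. *Rap1a* held 27.8%, 27.3% and 27.5% of the Rap1 level in control and 21.3%, 23.5% and 23.4% in mutant libraries. *Rap2c* was the leading Rap2 gene in every library. Its share of the Rap2 level was 53.3 ± 2.69% in control and 46.7 ± 1.90% in mutant libraries (SD, n = 3), and that of *Rap2a* was 20.7 ± 0.445% and 24.7 ± 2.45%. The *Rap2b* share overlapped between the groups. From CPM adjusted for GC content, a calculation added after seeing the data, the *Rap2c* shares overlapped too (47.1% to 53.97% in control and 47.9% to 52.3% in mutant libraries), as did those of *Rap2a*. The *Rap1a* share (27.0% to 27.7% and 21.6% to 23.7%) and that of the 5 Rap genes (52.2% to 56.8% and 48.7% to 51.0%) stayed without overlap. All these sums and shares are built from the levels that were known when the genes were chosen. They are a description only, and nothing is read from their overlap or lack of it.

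**Figure D2:**
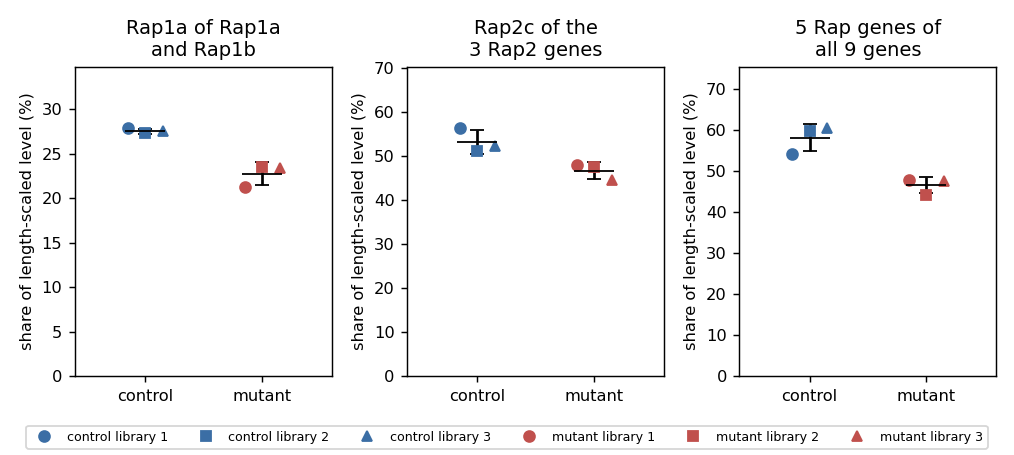
Share (%, y axis from 0) of *Rap1a* in the summed level of *Rap1a* and *Rap1b*, of *Rap2c* in that of the 3 Rap2 genes, and of the 5 Rap genes in that of all 9 genes, from CPM divided by exon length, in each control (blue) and mutant (red) library with mean ± SD (n = 3). In each panel every mutant library lies below every control library, which for *Rap2c* does not hold with CPM adjusted for GC content.

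In CPM per kilobase of exon, the order in control libraries was *Rap1b* (39.1 ± 1.74), *Hras* (35.0 ± 4.73), *Rap2c* (16.8 ± 0.411), *Rap1a* (14.9 ± 0.596), *Nras* (13.4 ± 0.749), *Rras* (10.8 ± 0.355), *Rap2b* (8.25 ± 1.47), *Rap2a* (6.55 ± 0.307) and *Rras2* (2.61 ± 0.0886). The libraries of *Rap1b* and *Hras* overlapped, as did those of *Rap2b* and *Rap2a*, and all other neighbours were apart. In mutant libraries *Hras* (41.2 ± 0.108) came before *Rap1b* (29.9 ± 2.04), followed by *Nras* (13.0 ± 1.42), *Rras* (12.2 ± 1.52), *Rap2c* (9.81 ± 1.18), *Rap1a* (8.79 ± 0.435), *Rap2b* (5.99 ± 0.711), *Rap2a* (5.21 ± 0.930) and *Rras2* (1.98 ± 0.133). There, *Nras* and *Rras*, *Rras* and *Rap2c*, *Rap2c* and *Rap1a*, and *Rap2b* and *Rap2a* overlapped. With the length of the longest transcript in place of the union of exons, *Hras* (46.2 CPM per kilobase) came before *Rap1b* (41.4) in control libraries too.

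The difference between the groups moved with the base composition of the transcripts over the whole table, and in part among the 9 genes. The GC content of the longest transcript was lowest in *Rap2c* (36.5%) and *Rap1a* (38.8%), the genes with the largest decreases, and highest in *Hras* (55.2%) and *Rras* (58.1%), the genes with higher means in mutant libraries. *Rap1b* had 39.9%, *Nras* 42.6%, *Rras2* 45.4%, *Rap2a* 48.8% and *Rap2b* 49.2%. These did not follow that order, as *Nras* was at -0.04 and *Rap2b* (-0.46) fell more than *Rap1b* (-0.39). When all 19330 tested genes were divided into 5 groups of nearly equal size by GC content, the median log2 fold change was -0.27 in the group with the lowest content (up to 43.8%), then -0.12, 0.01 and 0.12, and 0.21 in the group with the highest content (from 55.3%). In the lowest group, which holds *Rap1a*, *Rap1b*, *Rap2c* and *Nras*, 21.9% of genes were past the threshold and lower in mutant libraries, against 2.90% in the highest, which holds *Rras*.

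**Figure D3:**
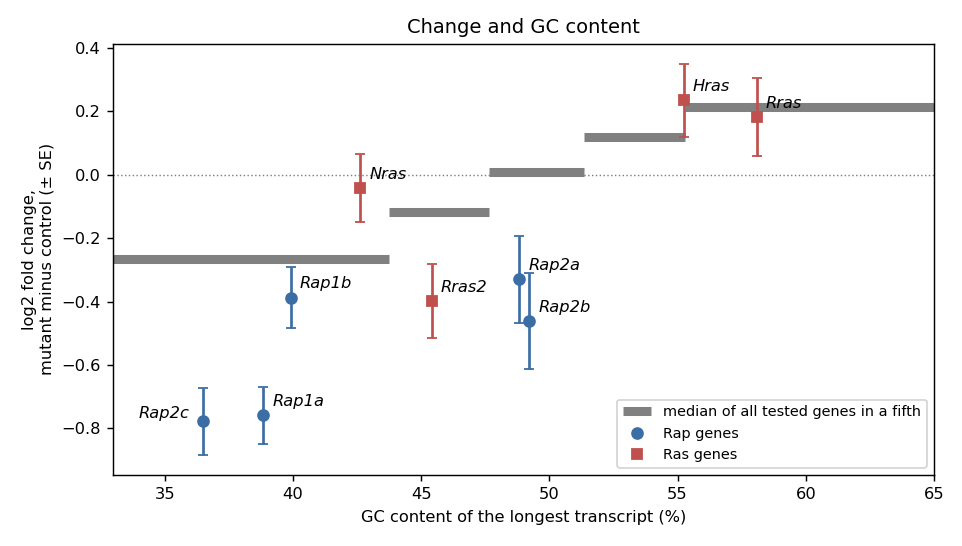
Log2 fold change (mutant minus control, ± SE) of the 5 Rap (blue circles) and 4 Ras genes (red squares) against the GC content (%) of the longest transcript, with grey bars for the median log2 fold change of all tested genes in each of 5 groups by GC content, whose outer bars are drawn to the edge of the axis. The medians rise from -0.27 to 0.21, and the 5 Rap genes and *Rras2* lie more than their SE below the bar at their GC content. Each bar is the median of a whole group and does not follow the trend inside it. With the offset for GC content, *Rap1b* is at -0.07 (SE 0.09).

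An offset for GC content, fitted in each library over all genes, was therefore added to the fit. With it, 1 of the 9 genes, *Rap1a*, was past the threshold (6.55% of all genes were past it and lower in mutant libraries), with a log2 fold change of -0.41 (SE 0.08). Its adjusted CPM of 35.1, 32.97 and 35.0 in control and 25.5, 25.6 and 26.4 in mutant libraries did not overlap. The offset moved *Rap1b* to -0.07 (SE 0.09), with overlapping groups, and *Rap2c* to -0.36 (SE 0.11). *Rap2a* (-0.32) and *Rap2b* (-0.46), with a middle GC content, hardly moved, and *Rras2* was at -0.27 (SE 0.11). *Hras* moved to 0.07 (SE 0.11). *Nras* turned to 0.18 (SE 0.10) and *Rras* to -0.03 (SE 0.11). The sign of the difference stayed the same with this offset for the 5 Rap genes, *Rras2* and *Hras*. Of these, *Rap1b* and *Hras* lay within their SE of no difference. Why composition and group moved together was not tested, and the offset also takes away differences that belong to a genotype if these follow GC content.

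**Figure D4:**
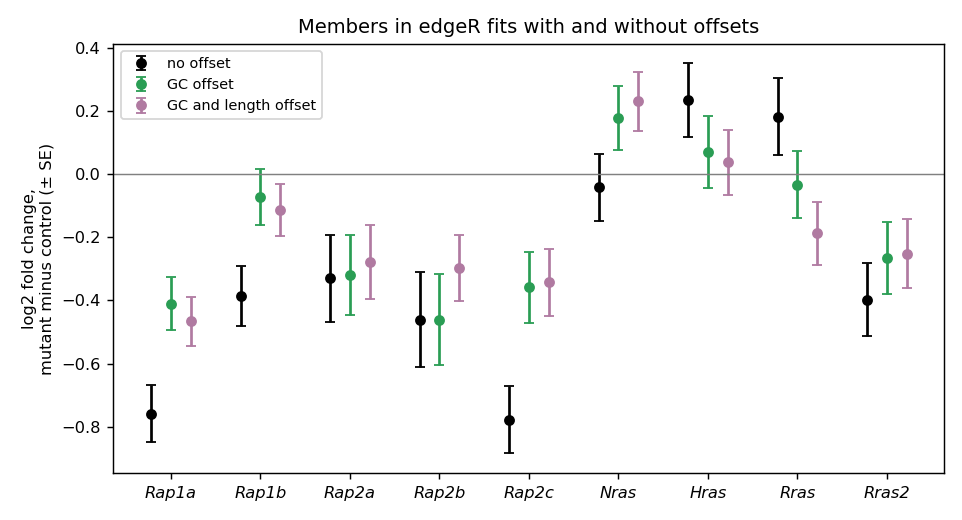
Log2 fold change (mutant minus control, ± SE, n = 3 libraries per group) of each gene from edgeR without an offset (black), with an offset for GC content (green) and with offsets for GC content and transcript length (purple). *Rap1a* stays below -0.40 in all 3 fits, *Rap1b* comes near 0 with either offset, and *Nras* and *Rras* change sign.

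For RefSeq promoter windows on GRCm38.p6 (250 bases before to 50 after a gene's start), 8 of the 9 genes matched, in 10 windows. *Rap1a* had none. The stretch upstream of the start is shown for a pair of genes with mutant libraries lower and for *Hras*, with matches on either strand to the GC box (GGGCGG), the CCAAT box, the TATA box (TATAAA) and the cyclic AMP response element (TGACGTCA) in capitals. They lie at chr10:117845975-117846224 for *Rap1b*, chrX:51018019-51018268 for *Rap2c* and chr7:141194005-141194254 for *Hras*, all on the minus strand:

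Rap1b: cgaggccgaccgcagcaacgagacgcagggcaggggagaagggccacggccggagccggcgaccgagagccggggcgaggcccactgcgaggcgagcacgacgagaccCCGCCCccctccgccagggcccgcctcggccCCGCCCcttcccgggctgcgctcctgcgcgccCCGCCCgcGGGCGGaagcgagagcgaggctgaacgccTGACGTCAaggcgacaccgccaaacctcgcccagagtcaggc
Rap2c: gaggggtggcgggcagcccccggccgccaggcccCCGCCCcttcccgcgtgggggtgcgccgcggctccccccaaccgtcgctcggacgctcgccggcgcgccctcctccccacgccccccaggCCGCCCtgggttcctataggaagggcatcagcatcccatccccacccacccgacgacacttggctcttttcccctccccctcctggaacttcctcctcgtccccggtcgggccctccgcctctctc
Hras: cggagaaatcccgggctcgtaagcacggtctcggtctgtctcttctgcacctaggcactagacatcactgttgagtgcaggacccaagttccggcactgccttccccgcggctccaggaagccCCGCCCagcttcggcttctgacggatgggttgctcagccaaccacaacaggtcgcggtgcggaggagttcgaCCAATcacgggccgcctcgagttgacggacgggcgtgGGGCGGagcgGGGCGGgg

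Over their whole length, 7 of the 10 windows held the GC box GGGCGG, against 35.7% of 32851 promoter windows of the genome. These belonged to 7 of the 8 genes, and the exception was *Rras*. CCAAT was found in 3 of the 10 windows, of *Hras* and *Rras* (37.4% of all windows). TATAAA was found in none of the 10 (13.6%), and TGACGTCA in 1 window, of *Rap1b* (1.79%). The promoters of *Rap1b* and *Rap2a* had a GC content of 78.0% and 77.7%, above a median of 52.7% over all windows, although the *Rap1b* transcript is poor in GC. Of the genes with higher means in mutant libraries, *Hras* held GC boxes and *Rras* did not. All matched genes with lower means held them. A link between the boxes and the group differences was not tested.

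The pattern over the 6 libraries was shared with many other genes, as a comparison of 15040 genes with a mean of at least 1 CPM showed. On log2 CPM, between 406 and 823 genes had a Pearson r over 0.95 with each of the Rap genes, 541 with *Rras2*, 220 with *Rras*, 116 with *Hras* and 50 with *Nras*. The most similar gene was *Gm6140* for *Rap1a* (r = 0.998), *Gm44419* for *Rap1b*, *Pgap1* for *Rap2a*, *Tent4b* for *Rap2b*, *Gm26669* for *Rap2c*, *Ints12* for *Nras*, *Mrpl20* for *Hras*, *Tmem198b* for *Rras* and *Gm6934* for *Rras2*, each with r of at least 0.993 over 6 libraries. These are descriptions over few libraries that share the split into groups.

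The regulators, effectors and relatives of the 9 genes were taken from 6 lists with 107 genes, of which 100 were tested. Of these 100, 10 were higher and 10 lower in mutant libraries at an adjusted p under 0.05 (edgeR's quasi-likelihood test), or 20% against the 20.2% of all genes, and the median log2 fold change was 0.02. With the GC offset, 9 of the 20 were past the threshold, all 20 kept their sign, and 2 further genes passed. Over all 19330 genes tested, 2828 were past it with this offset. Leaving out control library 2 or control library 3 left 1 gene of the lists past the threshold, *Lypla1* (910 and 872 genes in all). In the counts per list that follow, rose and fell mean past the threshold in the fit without an offset. Genes not past it are counted as neither, whatever their sign.

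Among the exchange factors, 1 of 18 rose and 2 fell (median 0.28). *Rapgefl1*, a gene of the Rap exchange factor family, rose from 23.0 ± 3.59 to 37.3 ± 3.29 CPM (log2 fold change 0.70, SE 0.13, adjusted p = 0.012 from edgeR). *Plce1*, a phospholipase C with an exchange factor domain for Rap1, fell from 9.86 ± 1.68 to 6.21 ± 0.428 CPM (-0.67, adjusted p = 0.024 from edgeR). *Rapgef2*, which activates Rap1 and Rap2, fell from 55.8 ± 6.64 to 38.8 ± 6.31 CPM (-0.52, adjusted p = 0.039 from edgeR). The groups did not overlap for these 3 genes, and all 3 were also past the threshold with the GC offset. *Rapgef1*, an exchange factor for Rap1, was the most abundant at 132 ± 10.2 CPM in control libraries and 160 ± 19.4 CPM in mutant libraries, with an adjusted p of 0.14 from edgeR.

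Of 18 genes in a list of GAPs and Spred inhibitors, 1 rose and 2 fell (median 0.02). None of the 18 was past the threshold with the GC offset. *Rap1gap*, which switches Rap1 off, rose from a range of 106 to 126 CPM to one of 137 to 172 CPM (0.42, adjusted p = 0.042 from edgeR) without an offset and had a log2 fold change of 0.20 with it. *Spred1*, an inhibitor of Ras signaling that recruits neurofibromin, fell from 105 ± 8.85 to 68.7 ± 10.6 CPM (-0.61, adjusted p = 0.019 from edgeR), with -0.34 under the offset. *Rasa1*, or p120 RasGAP, fell from 79.9 ± 2.0 to 58.6 ± 9.74 CPM (-0.45, adjusted p = 0.043 from edgeR), with -0.20 under the offset. *Sipa1l3* was the most abundant, with 193 ± 3.83 and 209 ± 43.6 CPM and an adjusted p of 0.61.

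Of the 11 Rap effectors, 2 rose and none fell (median 0.00). *Mink1*, a kinase activated by Rap2, rose from 95.4 ± 2.47 to 144 ± 25.5 CPM (0.59, adjusted p = 0.021 from edgeR) and *Rundc3a* from 4.17 ± 0.544 to 7.4 ± 2.20 CPM (0.83, adjusted p = 0.036). Neither was past the threshold with the GC offset. *Map4k4*, the kinase related to *Mink1* and the most abundant effector, had 212 ± 5.86 and 226 ± 28.1 CPM (adjusted p = 0.59).

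Of 20 Ras effectors and genes of the ERK cascade, 4 rose and 2 fell (median 0.03). The MEK genes differed in opposite directions. *Map2k1* fell from 47.6 ± 1.84 to 31.8 ± 5.09 CPM (-0.58, adjusted p = 0.018 from edgeR) and stayed past the threshold with the GC offset (-0.64), whereas *Map2k2* rose from 79.7 ± 4.83 to 108 ± 0.652 CPM (0.44, adjusted p = 0.015) and did not (0.21). *Pik3cg*, a PI3-kinase of leukocytes, fell from 5.38 ± 0.802 to 2.69 ± 0.553 CPM (-0.998, adjusted p = 0.015) in the fit and in that with the offset. Of the 5 leukocyte markers, *Adgre1* was past the threshold and lower (-0.61, adjusted p = 0.048 from edgeR). It measured 7.97 to 12.2 CPM in control and 5.96 to 7.44 CPM in mutant libraries. The other 4 were not past the threshold, at 0.47 for *Lyz2*, 0.41 for *Cd68*, -0.16 for *Ptprc* and -0.21 for *Csf1r*. The summed level of the 5 markers was 80.3 to 95.1 CPM in control and 77.7 to 96.5 CPM in mutant libraries. The part of leukocytes in the *Pik3cg* value was not tested. *Ralgds*, *Rgl2* and *Rassf1* also rose, with log2 fold changes of 0.31, 0.66 and 0.41. With the GC offset these were 0.11, 0.42 and 0.56, and of the 3 genes *Rassf1* alone stayed past the threshold. *Rassf1* shares 38.7% of its 75-base stretches with the antisense gene *Gm9917*.

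Of 14 genes for lipid modification and transport of these GTPases, 1 rose and 3 fell (median -0.17). *Lypla1*, which removes palmitate from Ras, fell from 53.2 ± 0.543 to 30.5 ± 6.40 CPM (log2 fold change -0.80, SE 0.14, adjusted p = 0.0098 from edgeR). *Gm37988* holds 6.58% of its stretches, and the sum with the genes sharing its sequence fell by 0.73. It was the only one of the 20 genes past the threshold in all 6 fits that left out 1 library. *Rap1gds1*, the chaperone SmgGDS that binds Rap1 before its lipid is attached, fell from 82.6 ± 1.86 to 60.1 ± 8.17 CPM (-0.46, adjusted p = 0.027), and *Golga7*, part of the enzyme that attaches palmitate, from 53.2 ± 0.508 to 41.6 ± 2.27 CPM (-0.36, adjusted p = 0.025). *Golga7* has stretches in common with *Gm45412* and with processed pseudogenes, and the sum with them fell by 0.29. *Rce1*, the protease that trims the last residues shown above, rose from 11.0 ± 0.396 to 14.1 ± 0.978 CPM (0.36, adjusted p = 0.049), and of the last 3 genes only *Rap1gds1* was past the threshold with the GC offset.

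Of 19 other Ras family GTPases, *Gem* fell and *Nkiras2* rose (median 0.02). *Gem*, which inhibits calcium channels, fell from 6.47 ± 1.16 to 3.31 ± 0.668 CPM (-0.96, adjusted p = 0.017 from edgeR) and was also past the threshold with the offset. *Nkiras2*, an inhibitor of NF-kappa-B signaling, rose from 29.3 ± 2.12 to 37.5 ± 2.34 CPM (0.36, adjusted p = 0.038), and with the offset it was at 0.17 and not past the threshold. Of its stretches, 5.95% also occur in *Dnajc7*, and the summed log2 fold change was 0.25. *Rasl11b* was the most abundant at 95.1 ± 14.7 and 116 ± 6.26 CPM (adjusted p = 0.13), and *Rasd1* was near the floor of detection with 0.188 ± 0.0688 and 0.444 ± 0.0740 CPM (adjusted p = 0.054).

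**Figure D5:**
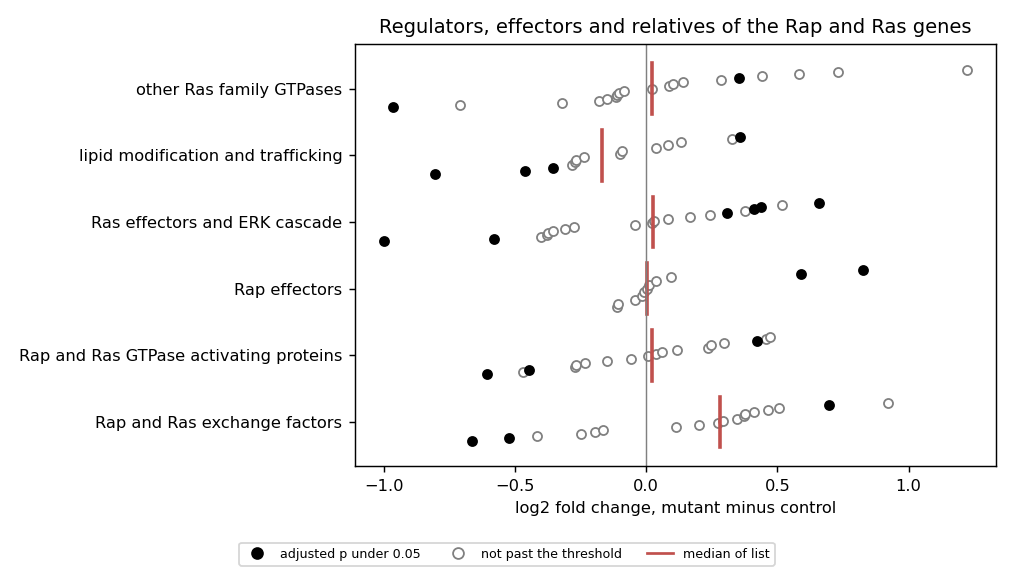
Log2 fold change (mutant minus control, x axis) of the 100 tested regulators, effectors and relatives in 6 lists, with filled points for genes at an adjusted p under 0.05 and red lines for each list's median. In every list most points are open, and filled points lie on both sides of 0 except for the Rap effectors, whose 2 filled points are both to the right.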

How the data were processed

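The members and gene lists were chosen with earlier results of these data known. The authors deposited estimated counts per gene, counted over exons of mm10 from single-end reads of 75 cycles. The methods name TopHat 2 and the submitters' processing notes name STAR 2.6.1d and Partek; the counting program, annotation and use of strand are not given in the sources used here. Of the values above 0, 43.5% to 45.6% per library were exactly whole. They also deposited a normalized signal, the count plus 1 times 1 factor per library, not divided by length.

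The design assumed counts, so estimated counts were rounded. The 6 columns of other samples were not used. R 4.3.3 with edgeR 4.0.16 (TMM, filterByExpr, quasi-likelihood test, Benjamini-Hochberg adjustment over 19330 genes), limma 3.58.1 and DESeq2 1.42.0 were used. The test was also run on simulated counts with a common relative spread for all genes and no GC trend. That check cannot show how the test behaves with the GC trend seen here. With 3 against 3 libraries an exact permutation test cannot go below p = 0.1. GC offsets were lowess trends per library. Genes sharing at least 20 stretches of 75 bases of GENCODE M21 transcripts, on either strand, were treated as sharing sequence. All 27506 symbols matched M21, whose coordinates are given. Named were all members, and of each list the 3 genes with the smallest p and the most abundant (1 gene so chosen is not reported here); *Ralgds*, *Rgl2*, *Rassf1*, *Rce1* were added after their values were seen. Alternatives are given in the closing section.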

Additional observations from a re-analysis of the deposited data

How the results depend on the processing

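Of the 9 members, 4 were past the threshold with DESeq2's size factors (3891 genes in all) and with scaling by library size alone (3714). So were 4 with a minimum of 1 CPM in 3 libraries (3586 of 15109 genes) and with sums over genes sharing sequence. DESeq2's Wald test gave 5 members (5410 genes in all). There were 3 without a filter (3390 of 27486 genes) and in limma on the normalized signal with pseudocounts of 1 (3432 of 22061) and 0.1 (3801). With the label index as a replicate block there were 2 members, 6 pathway genes and 2013 genes in all, against 4, 20 and 3906 without it. The study's methods mention 3 pairs of samples but do not say which libraries form a pair. The pairing used here rests on the number in the label alone. The deviations of same-numbered libraries correlated at -0.10, -0.0795 and -0.00375. With the GC offset there were 1 member and 11 pathway genes (2828 genes in all), and with GC and length offsets 1 and 13 (3001). With the GC offset and the replicate block there were 0 and 4 (1323 genes in all). In this last fit by edgeR 4 members had an unadjusted p under 0.05. The share of all genes under it was not counted, so nothing is read from this number. DESeq2, without offset or block, called 5 members at the adjusted threshold. The cause of the difference between these fits was not tested. Leaving out 1 library gave 2 to 5 members, 1 to 27 pathway genes and 872 to 5001 genes in all; *Rap1a* and *Rap2c* were among the members in each of these 6 fits. Without control library 2 or 3 there were 910 and 872 genes in all and 2 members each. Over 18 alternatives *Rap1a* ran from -0.81 to -0.41 on the log2 scale (past the threshold in 17), *Rap2c* from -0.86 to -0.34 (in 15), *Rap1b* from -0.43 to -0.07 (in 12), *Rras2* in 5, *Rap2b* in 3 and *Rap2a* in 1. *Hras* kept its sign in all 18, while *Nras* changed it in 4 and *Rras* in 3.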
